A study of Rattus norvegicus with 23 samples.

Results

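The axon guidance and cell adhesion families on a spotted oligonucleotide array were followed in rat dorsal root ganglia after a conditioning lesion, which is a cut of the peripheral nerve made before any central injury. Members were all probes whose annotated gene symbol begins with the name of a semaphorin, plexin, neuropilin, Eph receptor, ephrin, netrin, slit, Robo, Unc5, numbered cadherin, protocadherin, Ncam, L1cam, contactin or integrin. They were 76 of the 5088 probes and stood for 66 genes, of which 10 had a pair of probes. No plexin probe carried a symbol of this kind, and Unc50 was taken in by the spelling of its name only and is not a netrin receptor. Long-Evans rats had the sciatic nerve transected on postnatal day 20 to 24, and the L4 and L5 ganglia were taken 4, 8, 12, 18, 24, 48, 148 or 296 h later. On each of the 23 arrays a lesioned sample in Cy5 was read against an intact sample in Cy3, with 3 arrays for each time and 2 at 296 h, and with no exchange of the dyes. The second 296 h array carries a time label of 294 h. The labels name the material as cultured DRG cells in both channels and their labelling text mentions cAMP-treated cultures, whereas the treatment text describes tissue taken after surgery, so which was hybridised is not settled by the labels. They do not say that replicate arrays came from separate animals, and p-values therefore measure the spread between these samples, which may be technical.

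The values are log2 ratios of lesioned over intact signal, with that direction taken from the dyes and not stated, so that a value below 0 means less signal in the lesioned sample. Only ratios were used, which leaves signal level unknown and gives no check of the labelled tissue by the level of its marker genes. Missing values set 17 full arrays, with 77 to 143 probes missing, apart from 6 sparse arrays, with 735 to 3025. Every 148 h array was sparse, as were replicates 2 and 3 of 48 h and replicate 2 of 296 h, so late times and sparse arrays largely coincide. All 76 probes could be tested at each time from 4 to 24 h, 70 at 48 h, 60 at 148 h and 50 at 296 h. The 49 member probes that no time left with fewer than 2 values entered the contrasts that join times.

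Guidance molecules steer growing axons. Class 3 semaphorins are secreted and act through neuropilins with plexins, ephrins are membrane-bound and signal to Eph receptors, netrins act on Dcc and Unc5 receptors, and slits act on Robo receptors. Cadherins and protocadherins join cells through calcium-dependent contacts with their own kind, immunoglobulin molecules such as Ncam1, L1cam and the contactins act between axons and glia, and integrins are alpha and beta dimers that bind the extracellular matrix. The clustered protocadherins lie in 3 neighbouring gene groups (alpha, beta and gamma), and single neurons are known to choose among their promoters.

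The beta protocadherins had the lowest median of the families in the mean over times (-1.17 over 4 tested probes). Those probes were annotated to Pcdhb12, Pcdhb13 and Pcdhb22. Pcdhb7 was not tested in that mean and had no call at a single time. The RefSeq sequence before the start of Pcdhb12 and Pcdhb7 is shown because these were the 2 measured beta protocadherin genes with one available. A link between these sequences and the ratios was not tested. Each stretch runs from 250 bases before to 50 bases after the annotated start in build GRCr8, Pcdhb12 at chr18:29413506-29413805 and Pcdhb7 at chr18:29328804-29329103, both on the plus strand. Capitals mark the longest element that both share, which begins 98 bases before the start in Pcdhb12 and 46 bases before it in Pcdhb7.
Pcdhb12: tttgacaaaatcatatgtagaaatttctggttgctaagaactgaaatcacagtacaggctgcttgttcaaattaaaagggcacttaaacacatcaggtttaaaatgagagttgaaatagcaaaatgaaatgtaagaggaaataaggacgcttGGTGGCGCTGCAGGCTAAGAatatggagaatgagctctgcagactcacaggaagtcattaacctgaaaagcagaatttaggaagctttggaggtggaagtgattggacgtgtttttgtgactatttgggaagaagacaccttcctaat
Pcdhb7: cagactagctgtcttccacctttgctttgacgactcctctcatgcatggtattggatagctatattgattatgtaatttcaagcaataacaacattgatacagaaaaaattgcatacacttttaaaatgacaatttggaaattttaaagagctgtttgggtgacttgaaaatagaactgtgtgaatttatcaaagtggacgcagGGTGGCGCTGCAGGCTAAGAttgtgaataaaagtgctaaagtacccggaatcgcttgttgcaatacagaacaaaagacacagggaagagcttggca
The shared 20 bases, GGTGGCGCTGCAGGCTAAGA, were found on either strand in 5 of 33469 such sequences (0.0149%), and all 5 belonged to genes whose symbol begins with Pcdh. Its inner 12 bases TGGCGCTGCAGG were found in 11 (0.0329%), of which 9 were Pcdh genes. These matches describe sequence only. The table held a sequence for 41 of the 66 member genes and for 2 of the 4 beta protocadherin genes measured, so Pcdhb13 and Pcdhb22 are named without one. The oligonucleotides on the array were not used here, and genes of this cluster are close in sequence, so which of them each probe read is uncertain.

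At single times more members were called lower than higher in the lesioned samples. Over the 8 times 32 of 560 probe and time combinations were lower and 6 were higher at an adjusted p under 0.05 (limma, Benjamini-Hochberg over all probes of a time), against 1.89% lower and 1.51% higher among all probes tested on the array. Members were thus called lower in 5.71% and higher in 1.07% of their tests. At 4 h 2 members were called (1.85% of all probes were called at that time), at 8 h 3 (1.26%), at 12 h 5 (3.61%), at 18 h 7 (2.07%), at 24 h 10 (6.19%), at 48 h 3 (3.96%) and at 148 h 8 (8.75%). At 296 h limma called 0 of 50 members (0.106% of all probes), with 6 members at an unadjusted p under 0.05. With replicate 1, 2 or 3 left out of every time, which leaves 1 or 2 arrays a time, 8, 6 and 9 combinations were called. With equal weights for all arrays 55 were called, of which 18 were among the 38. The share of all probes called under equal weights ran from 0.139% at 12 h to 28.7% at 148 h. The 38 calls of the main setting fell on 15 probes of 14 genes, which the map of means by time shows together.

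**Figure D1:**
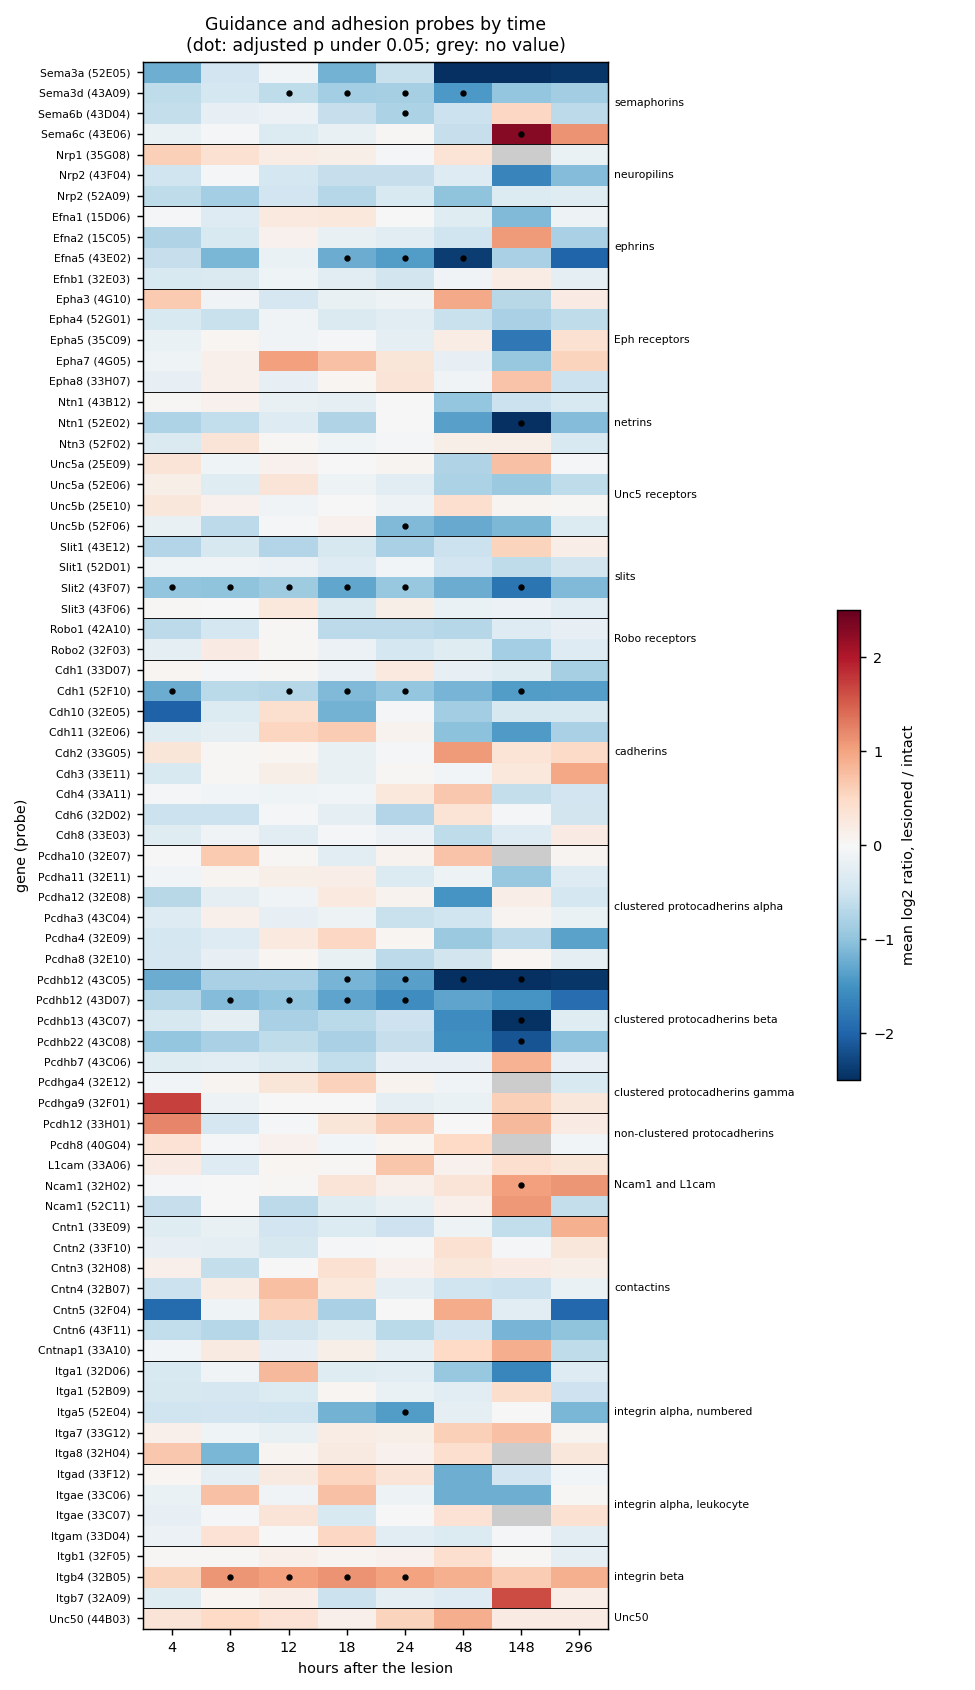
Mean log2 ratio (colour, limited to -2.5 and 2.5 on the scale) of each of the 76 guidance and adhesion probes (vertical axis, in order of subfamily) at each of the 8 times (horizontal axis, hours after the lesion). Dots mark the 38 values with an adjusted p under 0.05 and grey marks times without a value; Pcdhb12, Slit2, probe 52F10 of Cdh1, Sema3d and Efna5 form the blue bands with dots, and Itgb4 is the red band.

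All 32 lower calls lay on probes whose identifiers begin with 43 or 52. The identifiers read as a plate number, a row letter and a column number, with 53 plates of 96 probes, and this reading is an inference from their form. The probes on those plates that are not members also had low ratios, with a median of the mean over arrays of -0.35 on plate 43 and -0.37 on plate 52, while the median of all probes was 0.06. The 28 members there had a median of -0.59 and 27 were below 0. The 48 members on other plates had a median of 0.02 and 22 (45.8%) were below 0, beside 43.1% of all probes. What the plate contributes to these ratios was not tested. With the median of each plate subtracted on each array, a comparison chosen after the data were seen, 15 of the 560 combinations were called, 10 lower and 5 higher, of which 14 were among the 38. Of all tests 1.07% were then lower and 1.13% higher. A value with the plate median subtracted is therefore given below for the member genes called, and is named as such.

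**Figure D2:**
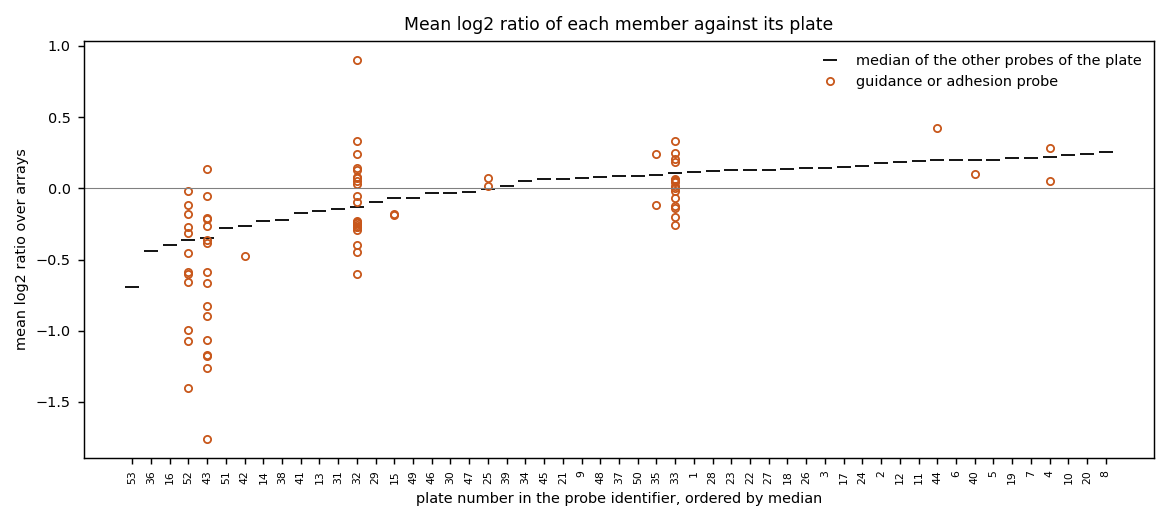
Mean log2 ratio over arrays (vertical axis) of each guidance or adhesion probe (circles) and of the median of the other probes of its plate (dashes), with the 53 plates ordered by that median (horizontal axis). Members on plates 43 and 52 extend well below the plate medians of -0.35 and -0.37, and the highest circle is Itgb4 on plate 32.

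Among the guidance ligands, meaning semaphorins, ephrins, netrins and slits, 15 of 117 combinations over single times were lower and 1 was higher, beside 1.89% lower and 1.51% higher among all tests on the array. Among their receptors, meaning neuropilins, Eph, Unc5 and Robo genes, 1 of 101 was lower and 0 were higher. Of the ligand probes 12 of 15 lay on plates 43 and 52, and of the receptor probes 5 of 14. With the plate median subtracted 2 ligand combinations were lower and 1 higher, and no receptor combination was called. The difference between ligands and receptors was not tested. In the mean over the 8 times, where a constant dye effect would add, 6 of 12 ligand probes were lower and 1 was higher, and 6 of 8 receptor probes were lower, beside 21.5% lower among all probes. After plate subtraction 5 of those 6 ligand probes passed and none of the 6 receptor probes did.

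Slit2, a secreted repellent ligand of the Robo receptors, was the most often called guidance ligand. Its log2 ratios were -0.85, -0.87 and -1.25 at 4 h, -1.24, -0.73 and -1.08 at 8 h, -0.54, -1.27 and -0.86 at 12 h, and -1.20, -1.28 and -1.44 at 18 h. They were -0.65, -1.56 and -0.63 at 24 h, -1.13, -1.06 and -1.54 at 48 h, -2.03, -0.24 and -3.21 at 148 h, and -1.41 and -0.80 at 296 h. All 23 arrays lay below 0, with the widest spread on the sparse 148 h arrays. The fitted value was -1.28 ± 0.21 (SE, n = 3) at 18 h, 2.42-fold lower, with an adjusted p of 0.00273, and it also passed at 4, 8, 12, 24 and 148 h with values from -1.74 to -0.99. With the plate median subtracted 18 h was the only single time that passed (-0.94, adjusted p = 0.0269), and 22 of 23 arrays were below the plate median. The mean over times also passed after that subtraction (-0.83 ± 0.12, adjusted p = 7.12e-05). The 148 h value was -0.83 (adjusted p = 0.5) without replicate 3 and -2.81 (0.0077) without replicate 2. With equal weights 148 h passed among these 6 times, and the 18 h value was -1.30 with an adjusted p of 0.167. Slit3 (mean over times -0.08) and both probes of Slit1 did not pass at any time.

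Sema3d, a secreted class 3 semaphorin, was below 0 on each of the 22 arrays that measured it, from -1.91 to -0.21 with a median of -0.82. It was also below its plate median on all 22. The fitted values fell by 0.57 at 12 h, by 0.71 at 18 h, by 0.79 at 24 h and by 1.30 ± 0.32 (SE, n = 3) at 48 h, where the adjusted p was 0.032. None of these 4 times passed with the plate median subtracted (adjusted p from 0.214 to 0.4), whereas the mean over times did, at -0.43 ± 0.09 with an adjusted p of 0.00204. Of the 4 times, only 24 h passed without replicate 3 (adjusted p = 0.0316), and only 48 h with equal weights (0.000354).

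Sema3a, the prototype repulsive semaphorin for sensory axons, had low ratios late, without passing the test of the change in time. The early arrays read -3.16, -0.28 and -0.20 at 4 h, -0.24, -0.06 and -1.11 at 8 h, and -0.11, -0.04 and -0.05 at 12 h. The later ones read -1.84, -2.28 and -3.51 at 48 h, -3.60, -2.91 and -2.66 at 148 h, and -1.26 and -3.63 at 296 h. The first 4 h array stood inside the late range, so the groups overlapped, and 22 of 23 arrays were below 0. Late minus early, the mean of 48, 148 and 296 h minus that of 4, 8 and 12 h, was -2.09 ± 0.69 with an adjusted p of 0.0884. The same contrast was -2.10 with an adjusted p of 0.0114 when arrays had equal weights, -2.76 with 0.0298 without replicate 1 of every time, and -1.07 with 1 on full arrays only. The mean over times was -1.37 ± 0.27 (adjusted p = 0.000739), and -1.03 with the plate median subtracted.

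Transmembrane semaphorins differed from each other. Among single times Sema6b was called at 24 h, with arrays at -0.55, -0.77 and -1.04 and a fitted value of -0.83 ± 0.19 (adjusted p = 0.0127, and -0.40 with 0.329 after subtraction of the plate median). Its mean over times was -0.42 ± 0.10 (adjusted p = 0.00256), and -0.09 with 0.57 after plate subtraction. Sema6c read between -0.95 and 0.52 on all 18 arrays to 48 h, then 2.18 and 2.39 on the 2 arrays of 148 h with a value, and -0.18 and 2.44 at 296 h. The 3 high values are all from sparse arrays. The fitted 148 h value was 2.32 ± 0.54 (n = 2), 4.99-fold higher, with an adjusted p of 0.0132. Late minus early was 1.15 ± 0.30 (adjusted p = 0.0343), and -0.22 on full arrays only, which reverses the direction. It was 1.27 with an adjusted p of 0.0996 without replicate 3. After plate subtraction the 148 h value was 2.82 (adjusted p = 0.00393) and late minus early 1.24 (0.0202).

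Efna5, a membrane-anchored ephrin that repels axons bearing EphA receptors, had arrays at -1.26, -1.40 and -1.08 at 18 h, -0.81, -1.47 and -1.88 at 24 h, and -3.06, -1.49 and -2.58 at 48 h. All these arrays lay below 0, while 3 arrays of other times were above it. The fitted values fell by 1.29 ± 0.31, by 1.50 ± 0.35 and by 2.39 ± 0.61 on the log2 scale (n = 3 each), with adjusted p of 0.0358, 0.0142 and 0.0346. None of these 3 times passed with the plate median subtracted, where they were -0.94, -1.06 and -1.85, although 20 of 23 arrays remained below the plate median. The mean over times did pass after plate subtraction, at -0.93 ± 0.18 with an adjusted p of 0.000769. Without replicate 3 none of the 3 times passed (adjusted p of 0.185, 0.273 and 0.142). With equal weights 48 h alone of them passed (0.00151). The other ephrins, Efna1, Efna2 and Efnb1, did not pass at any time. No Eph receptor passed at a single time either, and Epha4 was lower in the mean over times only (-0.44 ± 0.08, adjusted p = 0.000467, and -0.11 after plate subtraction).

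Ntn1, Unc5a and Unc5b each had a called probe and a probe without a call. Over shared arrays the correlation between the probes of a gene was 0.34 for Ntn1, 0.42 for Unc5a and -0.56 for Unc5b. On probe 52E02 of Ntn1, the secreted ligand of Dcc and the Unc5 receptors, the 148 h arrays read -3.29, -2.22 and -4.19, and the other 19 arrays lay between -1.68 and 1.06, so that 148 h did not overlap the rest. The fitted value was -3.19 ± 0.61 (n = 3), 9.13-fold lower, with an adjusted p of 0.00411, and -2.64 with 0.0184 after plate subtraction. It was -2.57 with an adjusted p of 0.083 without replicate 3, and -3.88 with 0.061 without replicate 2. All 148 h arrays were sparse, and with the arrays scaled to a common spread the value was -1.86 (adjusted p = 0.0026). Probe 43B12 of the same gene read -1.73, 0.54 and -0.41 at 148 h and did not pass. Likewise, Unc5b probe 52F06 was lower at 24 h, with arrays at -1.71, -0.89 and -0.71 (fitted -0.99 ± 0.26, adjusted p = 0.0268, and -0.68 with 0.118 after plate subtraction), where probe 25E10 read 0.37, -0.09 and -0.69. The mean over times of 52F06 was -0.58 ± 0.14 (adjusted p = 0.0025), and -0.25 with 0.146 after plate subtraction. For Unc5a, probe 52E06 was lower in the mean over times (-0.35 ± 0.12, adjusted p = 0.0337, and -0.02 after plate subtraction), and the mean of probe 25E09 over arrays was 0.02. Ntn3 did not pass at any time.

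Neuropilins bind class 3 semaphorins. Nrp2 was lower in the mean over times on both of its probes, by -0.59 ± 0.14 on 43F04 and -0.60 ± 0.13 on 52A09 (adjusted p of 0.0036 and 0.00161), with 18 of 22 and 22 of 23 arrays below 0. After plate subtraction the means were -0.23 and -0.27 and neither passed. Nrp1 had no value on the 148 h arrays and did not pass at any time tested. Robo1 was lower in the mean over times (-0.44 ± 0.11, adjusted p = 0.00459, and -0.20 with 0.143 after plate subtraction), and Robo2 was not called.

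**Figure D3:**
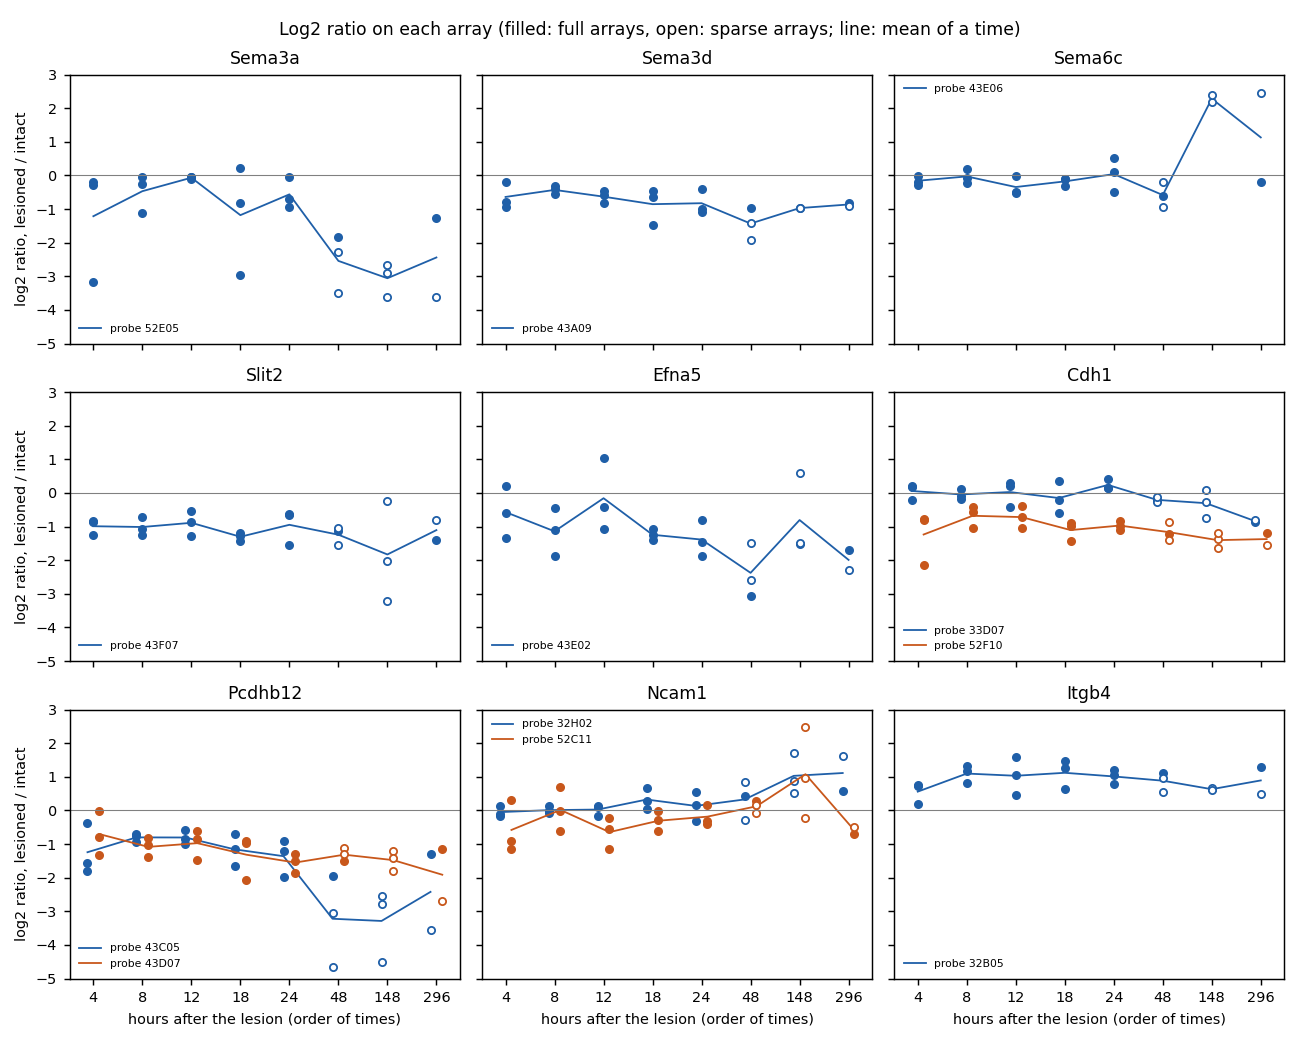
Log2 ratio of lesioned over intact signal on each array (vertical axis) by time (horizontal axis, times in order and not to scale) for 9 genes, with filled circles for full arrays, open circles for sparse arrays and a line through the mean of each time. Itgb4 lies above 0 on all 23 arrays; Slit2, Sema3d, both Pcdhb12 probes and probe 52F10 of Cdh1 lie below it wherever measured, and the late values of Sema3a, Sema6c and Ncam1 are mostly open circles.

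The adhesion genes were called in both directions. In the single times 16 of 335 combinations (4.78%) were lower and 5 higher, beside 1.89% lower and 1.51% higher among all tests. Of the 16, 10 were beta protocadherins, which had 39 combinations. Plates 43 and 52 held 11 of the 46 adhesion probes. With the plate median subtracted 8 combinations were lower and 4 higher, beside 1.07% lower and 1.13% higher among all tests. Alpha protocadherins (42 combinations), gamma protocadherins (13), non-clustered protocadherins (11) and contactins (54) had no call in either direction. Cntnap1, a contactin-associated protein, was counted with the contactins because its symbol begins with Cntn.

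Pcdhb12 probe 43C05 had the lowest mean over times of the 49 probes tested. It read -1.55, -0.37 and -1.81 at 4 h, -0.69, -0.94 and -0.77 at 8 h, -0.57, -1.00 and -0.84 at 12 h, and -0.69, -1.64 and -1.14 at 18 h. It then read -0.91, -1.20 and -1.97 at 24 h, -1.95, -3.05 and -4.66 at 48 h, -2.79, -2.55 and -4.52 at 148 h, and -1.30 and -3.54 at 296 h. Every array was below 0 and below its plate median, and 7 of the 8 late arrays lay below all 9 early arrays. Fitted values were -1.19 at 18 h, -1.45 at 24 h, -2.84 ± 0.54 at 48 h and -3.35 ± 0.63 (SE, n = 3) at 148 h, the last 10.2-fold lower with an adjusted p of 0.00315. After plate subtraction the 48 h value was -2.35 (adjusted p = 0.0383) and the 148 h value -2.75 (0.0177), and the values at 18 and 24 h did not pass (0.19 and 0.0722). With the arrays scaled to a common spread the values were -1.94 at 48 h and -1.93 (adjusted p = 0.00246) at 148 h. Without replicate 3 the 148 h value was -2.63 with an adjusted p of 0.1.

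Late minus early on that probe was -1.90 ± 0.41 with an adjusted p of 0.0116. It was -1.78 with 0.0222 after plate subtraction, -0.66 with 1 on full arrays only, -0.65 with 0.998 when full or sparse was a term of the fit, and -0.66 with 0.317 when the arrays were scaled to a common spread. It was -1.58 with 0.337 without replicate 2 and -1.64 with 0.107 without replicate 3. Probe 43D07 of the same gene also had 23 of 23 arrays below 0, from -2.69 to -0.01, and passed at 8, 12, 18 and 24 h with fitted values from -1.49 to -1.09. Its late minus early was -0.60 ± 0.32 with an adjusted p of 0.302, so the fall from early to late was called on 1 of the 2 probes. After plate subtraction 43D07 passed at 12 and 24 h and in the mean over times (-0.94, adjusted p = 3.25e-05). Without replicate 3 its calls at 8 and 18 h were lost (adjusted p of 0.0588 and 0.0801) and those at 12 and 24 h stayed. With equal weights 24 h alone of these times passed (0.0105).

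Pcdhb13 and Pcdhb22 were lower at 148 h. Pcdhb13 read -3.18, -2.09 and -2.14 there (fitted -2.33 ± 0.60, 5.02-fold lower, adjusted p = 0.0215), and Pcdhb22 read -1.34, -1.80 and -3.32 (fitted -2.29 ± 0.53, 4.90-fold lower, adjusted p = 0.0121). Pcdhb22 was below 0 on all 23 arrays and Pcdhb13 on 19. With the plate median subtracted neither passed at 148 h (adjusted p of 0.0922 and 0.0542), and both passed in the mean over times, at -0.49 and -0.73. Pcdhb7 had no call, with a mean over 20 arrays of -0.21, and its 148 h arrays read 1.17 and 0.55.

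Among the cadherins Cdh1, the E-cadherin known from epithelia, was lower on 1 probe. Probe 52F10 read -2.14, -0.77 and -0.80 at 4 h, -1.00, -0.90 and -1.42 at 18 h, -1.10, -0.82 and -0.99 at 24 h, and -1.65, -1.36 and -1.21 at 148 h, and all 23 arrays were below 0 and below the plate median. The fitted values fell by 1.13, by 0.72, by 1.03, by 0.95 and by 1.36 at 4, 12, 18, 24 and 148 h, each past the threshold, and the mean over times was -1.06 ± 0.11 (2.08-fold lower, adjusted p = 8.41e-07). Probe 33D07 of the same gene lay between -0.86 and 0.42, with 13 of 23 arrays below 0, and never passed. After plate subtraction 52F10 passed at 4 and 18 h (-0.85 and -0.81) and in the mean over times (-0.73, adjusted p = 2.06e-05). Without replicate 3 its calls at 4, 12, 18, 24 and 148 h were all lost (adjusted p from 0.0878 to 0.461). With equal weights the 12 h call was lost (adjusted p = 0.349). Cdh11, a mesenchymal cadherin, had a late minus early of -1.17 ± 0.34 with an adjusted p of 0.0541, and -1.09 with 0.0235 under equal weights. Cdh2, the N-cadherin of neurons and glia, was higher in the mean over times (0.27 ± 0.10, adjusted p = 0.0367), and 0.12 with 0.325 after plate subtraction.

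Ncam1, the neural cell adhesion molecule, was higher late on 1 of its 2 probes. Probe 32H02 read from -0.16 to 0.13 on the 9 early arrays. It read 0.42, 0.86 and -0.29 at 48 h, 0.52, 0.87 and 1.69 at 148 h, and 0.59 and 1.63 at 296 h, so 7 of the 8 late arrays were above all early ones. The 148 h value was 1.12 ± 0.34 (n = 3), 2.17-fold higher (adjusted p = 0.0487), and late minus early was 0.89 ± 0.22 with an adjusted p of 0.0289. The 148 h call was lost after plate subtraction (1.27, adjusted p = 0.0659), with the arrays scaled to a common spread (0.60, 0.0589), and without replicate 1, 2 or 3 (adjusted p of 0.122, 0.207 and 0.381). Late minus early was 1.03 with 0.0289 after plate subtraction, 0.50 with 1 on full arrays only, and between 0.71 and 1.11 without any single replicate number, where it did not pass. Probe 52C11 read 2.49, 0.97 and -0.23 at 148 h, and its late minus early was 0.46 and not past the threshold. L1cam, a related adhesion molecule of axons, was not called, and of the contactins Cntn6 alone was called, lower in the mean over times (-0.67 ± 0.15, adjusted p = 0.00179, and -0.34 with 0.0704 after plate subtraction).

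Itgb4, the integrin beta chain that pairs with alpha 6 as a laminin receptor of Schwann cells and epithelia, was the member with the highest mean over times. It read 0.77, 0.71 and 0.20 at 4 h, 1.31, 1.17 and 0.81 at 8 h, 0.47, 1.58 and 1.04 at 12 h, and 1.46, 1.27 and 0.63 at 18 h. It read 0.78, 1.19 and 1.06 at 24 h, 1.12, 0.56 and 0.98 at 48 h, 0.63, 0.66 and 0.61 at 148 h, and 1.30 and 0.48 at 296 h. All 23 arrays, full and sparse, were above 0 and above the plate median, which was -0.13 over the other probes of plate 32. The fitted values were 1.14 ± 0.18 at 8 h, 1.20 ± 0.15 at 12 h, 1.23 ± 0.17 at 18 h and 1.05 ± 0.19 at 24 h (n = 3 each), which is 2.07-fold to 2.34-fold higher, with adjusted p of 0.00255, 0.000195, 0.000435 and 0.00337. All 4 passed after plate subtraction (1.07 to 1.22). Under equal weights the 12 h value did not pass (1.03, adjusted p = 0.0818) and the other 3 did. Without replicate 2 none of the 4 passed, the 12 h value then being 0.91 with an adjusted p of 0.11. The mean over times was 0.94 ± 0.10 (1.92-fold higher, adjusted p = 1.52e-06), and late minus early was -0.15 ± 0.25 with an adjusted p of 0.809.

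Of the other integrins Itga5, the alpha chain of a fibronectin receptor, was lower at 24 h, with arrays at -1.12, -2.30 and -0.74 (fitted -1.42 ± 0.30, adjusted p = 0.00913, and -1.10 with 0.0425 after plate subtraction). Its mean over times was -0.69 ± 0.16 (adjusted p = 0.00218), and -0.35 with 0.0952 after plate subtraction. The probe table gives that probe a mouse accession. Without replicate 2 the 24 h value was -0.87 with an adjusted p of 0.25. Both probes of Itga1 and of Itgae, and the single probes of Itga7, Itga8, Itgad, Itgam, Itgb1 and Itgb7, were not called at any time. The leukocyte chains Itgad, Itgam and Itgae had at most 1 value at 296 h, and none entered the contrasts that join times.

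Values of the same sign on every array were counted for probes with at least 20 arrays. Below 0 on every array were 6 of 63 members, against 1.31% of all 3517 such probes, and they were both Pcdhb12 probes, Pcdhb22, Slit2, Sema3d and probe 52F10 of Cdh1. Above 0 on every array was 1 of 63, Itgb4, against 0.711% of all probes. Against the plate median in place of 0, 3 members were below on every array (0.995% of all probes), Sema3d, Cdh1 probe 52F10 and Pcdhb12 probe 43C05, and Itgb4 was again the 1 above (0.938%). These probes had all been named for their tests on the same arrays, so the counts describe and do not add support.

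**Figure D4:**
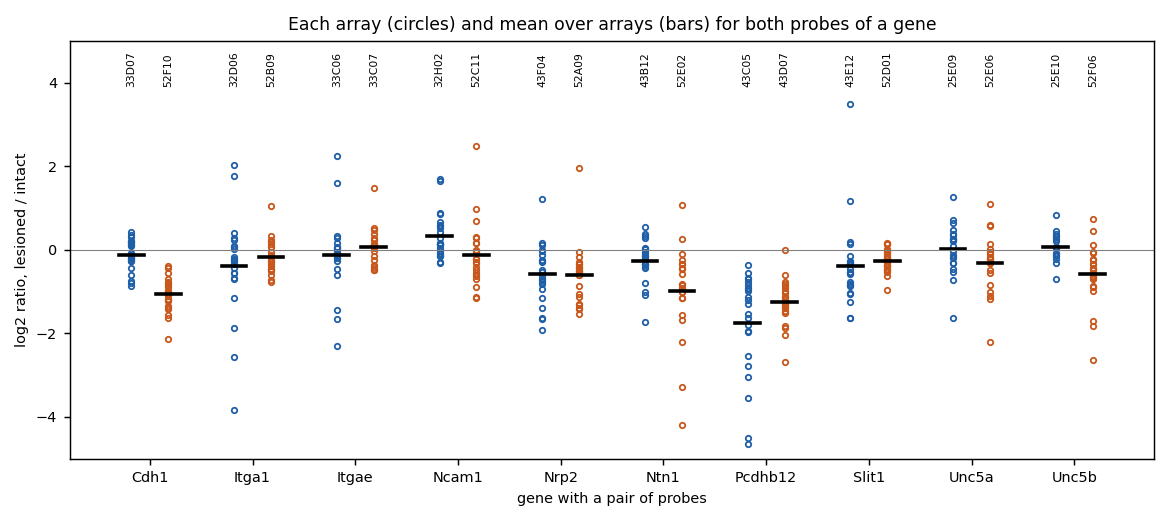
Log2 ratio on each array (circles, vertical axis) and mean over arrays (bars) for both probes of the 10 genes with a pair of probes (horizontal axis, probe identifiers above). Both probes lie below 0 on average for Pcdhb12 and Nrp2, and also for Cdh1, Ntn1, Slit1 and Itga1. For Cdh1, Ntn1, Unc5b and Ncam1 the bars of the 2 probes stand apart.

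Agreement between probes of a gene was uneven. Of the 8 genes with 1 probe on plate 52 and the other elsewhere, the plate 52 probe had the lower mean in 6, and the medians over those 8 genes were -0.45 on plate 52 and -0.19 elsewhere. For Nrp2, Ntn1 and Slit1 the other probe lay on plate 43, also a low plate, with means of -0.59, -0.26 and -0.39. For Cdh1, Itga1, Ncam1, Unc5a and Unc5b it lay on neither plate, with means of -0.12, -0.40, 0.33, 0.02 and 0.07. The pair not touched by plate 52 or 43 was Itgae, with means over arrays of -0.14 and 0.06.

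Late minus early was called for 3 of 49 members, 2 higher (Ncam1 and Sema6c) and 1 lower (Pcdhb12), beside 4.98% of all probes in either direction, 3.65% higher and 1.33% lower. The share of members called was thus close to that of all probes. The median over the 49 members was -0.21, against 0.04 over all probes tested, and 10 members had an unadjusted p under 0.05. By subfamily the median late minus early was lowest in the beta protocadherins (-0.99, 4 probes) and the netrins (-0.77, 2 probes) and highest in Ncam1 and L1cam together (0.46, 3 probes). Within the cadherins the values ran from -1.17 for Cdh11 to 0.49 for Cdh2, within the contactins from -0.48 for Cntn4 to 0.44 for Cntn2, and within the slits from -0.33 for Slit2 to 0.35 for Slit1. The integrins ran from -1.18 for probe 32D06 of Itga1 to 0.42 for Itgb7. None of these had an adjusted p under 0.05. In the mean over times 23 of 49 were called, 4 higher and 19 lower, beside 40% of all probes, 18.5% higher and 21.5% lower. Their median was -0.30, against -0.02 over all probes. With the plate median subtracted 16 of 49 members were called in the mean over times, beside 33.7% of all probes. Of these members 13 were among the 23. On full arrays only, where 75 members could be tested and 6.97% of all probes were called, 10 members were called, all of them among the 23.

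**Figure D5:**
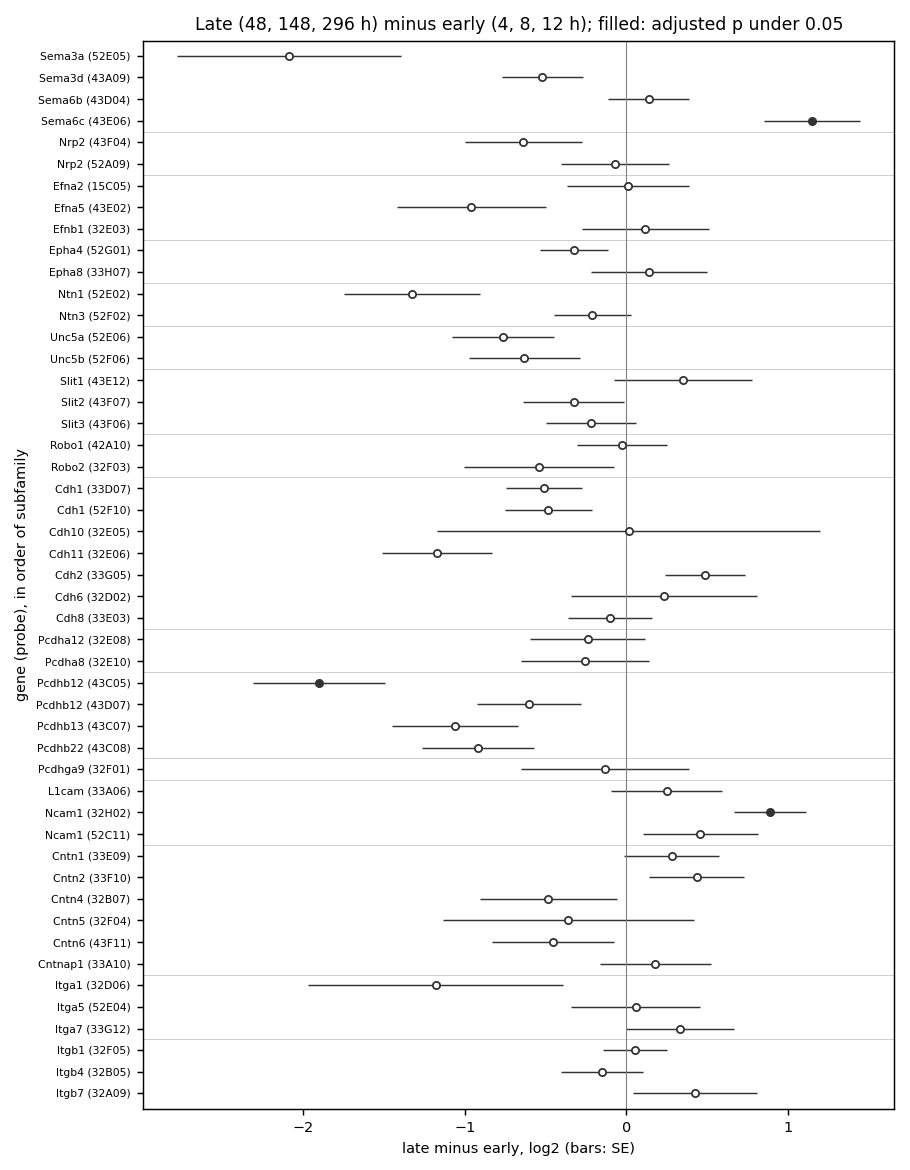
Late minus early difference in log2 ratio (horizontal axis, bars are SE) for the 49 guidance and adhesion probes tested in that contrast (vertical axis, in order of subfamily). Filled circles mark Sema6c, Pcdhb12 probe 43C05 and Ncam1 probe 32H02, which had an adjusted p under 0.05; Sema3a has the lowest value and a wide error.

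Genes that work with these families were described from lists. Of 29 probes for receptor partners and intracellular effectors of guidance, 8 of 224 combinations at single times were called, 4 in each direction (3.4% of all tests on the array were called). Collapsin response mediators, which carry semaphorin signals, went both ways, Dpysl2 falling by 1.04 and Dpysl4 by 0.65 at 24 h while Dpysl5 was higher by 1.41 at 148 h. The falling probes (43D10 and 43B03) lay on plate 43, whose median was -0.35. The Dpysl5 probe (37A05) lay on plate 37, whose median was 0.09. Values of these lists are given without plate subtraction, and what the plate contributes to them was not tested. Rhob, a small GTPase, was higher at 24 h (0.62 ± 0.12). Among cytoplasmic partners of cadherins and integrins 4 of 116 combinations were called, all lower, of which the actin crosslinker Actn4 made 3, at 18, 24 and 48 h (-0.78, -0.86 and -1.06). Integrin ligands had 1 call higher, Lamb2, and 1 lower, Col4a3, both at 148 h on 2 arrays. Other immunoglobulin adhesion molecules had 7 calls higher and 3 lower of 186, with Mag, of myelin, higher at 4, 8 and 48 h and Nfasc, of axons and nodes, at 12, 18 and 24 h. None of these 4 lists had a call in late minus early.

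Cell type markers moved over the same arrays. Whether ganglia or cultured cells were hybridised is not settled by the labels. In either material RNA was not separated by cell type, so fewer cells of a type and less RNA per cell cannot be told apart. Schwann cell and satellite glia markers had 7 calls higher and 2 lower of 129 combinations, beside 1.51% higher and 1.89% lower among all tests. Among them, at times when Itgb4 was called, Mag was higher by 1.09 ± 0.24 at 8 h on 2 arrays, Prx by 0.77 ± 0.12 and Pmp22 by 0.68 ± 0.11 at 12 h, and Prx by 0.76 and Pmp22 by 0.50 at 24 h. S100b (probe 52D05, on plate 52) and Glul (probe 14F03) were lower at 24 h, each with a value of -0.77 without plate subtraction. At 18 h, when Itgb4 was also called, 0 of the 17 glia probes were called and their median was -0.01. In the mean over times 3 of 12 glia probes were higher and 5 lower, with a median of -0.17. Of all probes 18.5% were higher and 21.5% lower in that mean. The mean over that list ranged from 0.01 to 0.15 on the early arrays and from -0.28 to 0.14 on the late ones, and Mbp was lower in late minus early (-0.95 ± 0.20), the single call of 12 probes. Sensory neuron markers had 2 calls higher, both Nefh at 12 and 24 h, and 8 lower of 137 combinations at single times. In late minus early 4 of their 15 probes were lower, beside 1.33% of all probes. They were Scn10a (-0.94), Calca (-0.89), Tac1 (-0.86) and Nefl (-0.55). The Nefl probe lay on plate 52, whose other probes had a median of -0.32 in that contrast. The mean of the neuron list ran from -0.20 to 0.19 early and from -0.93 to -0.10 late. Both macrophage markers tested in late minus early were higher, C1qb by 2.12 and Lyz2 by 1.77, although Lyz2 was lower at 4 h (-0.95 ± 0.24, adjusted p = 0.0496). Their list mean ran from -0.28 to 0.34 early and from 0.46 to 1.95 on the 7 late arrays with a value. Each list mean covers only the probes with a value on an array, so early and late ranges need not rest on the same probes. Of the 10 macrophage probes 3 could be tested at 148 h and 3 at 296 h. Fibroblast and vascular markers had 0 of 10 probes called in late minus early (limma) and skeletal muscle markers 0 of 2, with 3 of 105 and 1 of 49 combinations called at single times. The part of these shifts in the values of Pcdhb12, Ncam1, Sema3a and Itgb4 was not tested.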

How the data were processed

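RNA of lesioned and intact samples was compared on 23 two-colour arrays. The authors deposited a linear ratio of the 2 channels for each probe and array, with array medians near 1, and scanner, background correction and normalization are not given in the sources used here. The ratio values were converted to log2 without an offset. The model gave each of the 8 times its own mean and each array a weight (limma 3.58.1, arrayWeights, under R 4.3.3), and was tested on simulated data. A probe was tested at a time if at least 2 of its arrays had a value, and in late minus early and the mean over times if this held at all times. Two-sided p-values were adjusted by Benjamini-Hochberg over all probes tested, with a threshold of 0.05. The limit of 200 missing probes divides full from sparse arrays. No dye was exchanged, so a dye effect of a probe adds to each time and to the mean, and cancels in late minus early if constant.

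Named were members past the threshold, the genes Sema3a, Itgb4 and Pcdhb12, genes with a pair of probes, and the highest and lowest of a subfamily in late minus early, the last shown in the plot of that contrast. Members and lists were chosen with earlier results of these data known. Alternatives covered weights, centring, scaling, missing values, array class, plates, probes per gene, a replicate block and leaving out replicates. Columns of other samples numbered 0. Gene names came from the probe table, and 58 of 66 member genes matched RefSeq identifiers.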

Additional observations from a re-analysis of the deposited data

Results flagged for a closer look

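The contrast between late and early times was past the threshold for 3 of 49 members, beside 4.98% of all probes. It was -1.90 on the log2 scale for Pcdhb12 probe 43C05, 0.89 for Ncam1 probe 32H02 and 1.15 for Sema6c. Each was called by the test of the difference itself, but late times and sparse arrays largely coincide, so time and array class cannot be told apart. The other probes of Pcdhb12 and Ncam1 were not called, and 0 members were called with array class as a term. All 3 rest in large part on sparse arrays, and none passed on full arrays only, where they were -0.66, 0.50 and -0.22.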

How the results depend on the processing

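At single times 3.4% of all tests were called, and with the plate median subtracted 1.07% were lower and 1.13% higher. The count of members called there was 38 of 560. It was 22 on full arrays only, 15 with the plate median subtracted (added after the data were seen), and 6 to 9 with replicate 1, 2 or 3 left out of every time. Without replicate 3, which gave 9, the share of all probes called at a single time ran from 0.106% at 296 h to 1.72% at 148 h. In late minus early 4.98% of all probes were called. That share was 11.3% with equal weights, 1.98% with scaling between arrays and 0.172% with array class as a term. The count of members was 3. It became 7 with equal weights, 0 with scaling between arrays, 0 on full arrays only, 0 with array class as a term, and 0 to 2 with a replicate left out. The count in the mean over times was 23 of 49, beside 40% of all probes. It became 10 of 75 on full arrays only, 14 without plates 36, 52 and 53, and 13 to 20 with a replicate left out. Without plates 36, 52 and 53 the mean over times was tested on 39 members, and 37.1% of all probes were called. Sema6c changed direction on full arrays only, to -0.22 in late minus early and -0.19 in the mean over times, where its 148 h arrays drop out by construction. The cause of the other changes was not tested. The full arrays leave 48 h and 296 h with 1 array each and 148 h with none. The number of arrays limits the precision, and without intensities signal over background is unknown.

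Replicate numbers did not pair arrays across times. Over 77 pairs with the same number the correlation of deviations from the time means had a median of -0.006 and ran from -0.14 to 0.12, and 9 of 23 arrays were best matched by an array of their own number. With the replicate number as a block the counts were 32 at single times, 4 in late minus early and 23 in the mean over times. Of all probes 3.65% and 38.8% were called in late minus early and in the mean over times. At single times that share ran from 0.0706% at 296 h to 7.7% at 148 h.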
